A study of Danio rerio with 4 samples.

Results

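Endothelin 1 signalling was followed through 6 genes of zebrafish (Danio rerio) pharyngeal arch cells, chosen by symbol from the 31953 genes of the expression table: the ligand edn1 (ENSDARG00000036912), the receptors ednraa (ENSDARG00000011876) and ednrab (ENSDARG00000062262), the protease furina (ENSDARG00000062909), the phospholipase plcb3 (ENSDARG00000068246) and the transcription factor mef2ca (ENSDARG00000029764). All 6 were found, 1 row each. Double-positive cells for fli1a:GFP, a transgene of arch crest and vessels, and sox10:DsRed, one of the crest lineage, had been sorted from embryos that had reached the 36 hours post-fertilization (hpf) stage. Their RNA gave 4 libraries in 3 groups. Double mutants of nr2f2 and nr2f5, picked by a gap in the eye (coloboma), gave 2 libraries, mutant 1 and mutant 2, from pools of 37 and 84 embryos. Embryos carrying sox10:Gal4 together with UAS:Nr2f5, where Gal4 made in the sox10 lineage is meant to drive Nr2f5, gave 1 library from 84 embryos. Embryos with sox10:Gal4 alone gave the 1 control library, from 69 embryos. The last 2 groups were genotyped on fin biopsies taken at 24 hpf, and the labels give neither the driver nor a biopsy for the mutants, so driver, biopsy and mutations cannot be told apart. Nothing in the labels says that the mutant libraries are of separate clutches. The p-values therefore measure only the spread between these 2 libraries, pooled in part over genes, and that spread may be technical.

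Endothelin 1 is a small secreted peptide, cut from its precursor by Furin proteases and an endothelin converting enzyme. In the vertebrate arches it comes from the epithelia and mesoderm around the neural crest, and crest cells receive it through Endothelin receptor type A, a receptor coupled to Gq proteins and phospholipase C beta. In zebrafish, loss of edn1, furina, plcb3 or mef2ca disturbs the lower jaw and the joint, and the pathway switches on ventral genes such as the Dlx genes and hand2. The Nr2f proteins are nuclear receptors that the series connects with the identity of the upper jaw, so the comparisons ask how the genes of a lower jaw pathway stood when Nr2f was lost or supplied.

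Values are in RPM, taken as reads per gene for every 1000000 reads of the library (this scale is an assumption). They are not divided by gene length, so levels are compared between libraries and not between genes. At that scale 1 read was worth 0.0287 and 0.0441 RPM in mutants 1 and 2. It was worth 0.0987 in the library with UAS:Nr2f5 and 0.0334 in the control. The libraries imply 10127926 to 34787196 reads, the UAS:Nr2f5 library being the shallowest. Implied reads in genes were fewer, at 5286227 and 3590905 in the mutants, 1498322 in the library with UAS:Nr2f5 and 4467231 in the control. The targeted genes check the labels in part. nr2f5 was at 12.2 and 14.7 RPM in the mutants, 30.3 in the library with UAS:Nr2f5 and 28.8 in the control, and nr2f2 at 38.9 and 30.9, 28.1 and 41.4. The library labelled UAS:Nr2f5 thus shows no gain at the nr2f5 gene over the control. Whether reads of a transgene would count there is not known, and each direction drawn from that library rests on its label. Markers of the arch crest, including twist1a, prrx1a and sox9a, were above 0 for 10 of 10 genes in every library. Their summed level was 392 and 404 RPM in the mutants, 169 in the library labelled UAS:Nr2f5 and 262 in the control. Other cell types differed as well. Summed levels in mutant 1, mutant 2, the library labelled UAS:Nr2f5 and the control were 33.2, 49.8, 3885 and 1204 RPM for 11 muscle markers and 190, 159, 1695 and 632 RPM for 8 epithelial markers. Most of the epithelial sum in the mutants was krt8, at 131 and 129 RPM there, 89.0 in the library labelled UAS:Nr2f5 and 98.7 in the control. The 6 neuronal markers summed to 45.9, 49.0, 157 and 138 RPM. In bulk samples, fewer cells of a type and less RNA per cell cannot be told apart.

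The ligand was hardly read in these libraries. edn1 was listed at 0.144 RPM in mutant 1, which is 5 reads, and at 0 in the other 3 libraries. A count of 0 allows up to 3 reads, which is 0.132 RPM in mutant 2, 0.296 in the library labelled UAS:Nr2f5 and 0.1002 in the control. The value of mutant 1 lies below the limit of the library labelled UAS:Nr2f5 and above those of mutant 2 and the control, at least 1.43-fold above the control's. With counting error on both sides, the interval of its ratio to the control starts at 0.789, so a difference from the control was not detectable at this depth. Epithelial markers were present in the same libraries, with krt4 at 54.2 and 25.1 RPM in the mutants, 1508 in the library labelled UAS:Nr2f5 and 504 in the control. krt8, of the same list, went the other way, at 131 and 129, 89.0 and 98.7 RPM. The 6 pouch endoderm markers summed to 3.51 and 4.67 RPM in the mutants, 3.46 in the library labelled UAS:Nr2f5 and 4.51 in the control. Most of that was pax9, at 3.13 and 4.06, 2.67 and 3.91 RPM, and pax1b was at 0 in every library. The other ligand genes were also low. edn2 had 0.144 and 0.485 RPM in the mutants and was listed at 0 in the other 2 libraries. Mutant 2, with 11 reads, was at least 4.84-fold above the control's limit. With counting error on both sides, the interval of its ratio to the control starts at 3.31, and that of mutant 1 starts at 0.789. edn3b was listed at 0 in all libraries but the control, where it had 3 reads.

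Both genes of receptor type A were read, and ednraa was the steadier. ednraa was at 19.1 and 20.5 RPM in the mutants, 21.3 in the library labelled UAS:Nr2f5 and 19.7 in the control. The 4 values lie close together, and the control lies between the mutants. The mutants differed from the control by 0.00 ± 0.19 (SE) in log2(RPM + 1) (limma adjusted p = 0.997), with a 95% interval of −0.45 to 0.46. For the values as deposited, a change of 2-fold either way is outside that interval. The interval moves with library scaling and assumes that the lone control varies like the mutant pair. Against the library labelled UAS:Nr2f5 the mutants' difference was −0.10 ± 0.19 (adjusted p = 0.723). The ratio of the library labelled UAS:Nr2f5 to the control was 1.08, with an exact Clopper-Pearson 95% interval of 0.920 to 1.265. Such intervals and the limits for 0 reads cover counting error only.

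The second type A receptor gene, ednrab, was sparse. It had 37 and 14 reads (1.06 and 0.617 RPM) in the mutants, 0 reads in the library labelled UAS:Nr2f5 and 19 reads (0.635 RPM) in the control. The library labelled UAS:Nr2f5 is the one without a read. Against the 3 reads that a count of 0 allows there (0.296 RPM), it was at least 2.14-fold lower than the control. With counting error on both sides, the interval of the ratio starts at 1.58-fold lower. Its mean over the libraries was under the minimum of 1 RPM, so it was not tested. Receptor type B, which serves pigment and enteric crest cells, was hardly detected: ednrbb was listed at 0 in every library, and ednrba had 2 reads in mutant 1, none in mutant 2, 5 in the library labelled UAS:Nr2f5 and none in the control.

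**Figure D1:**
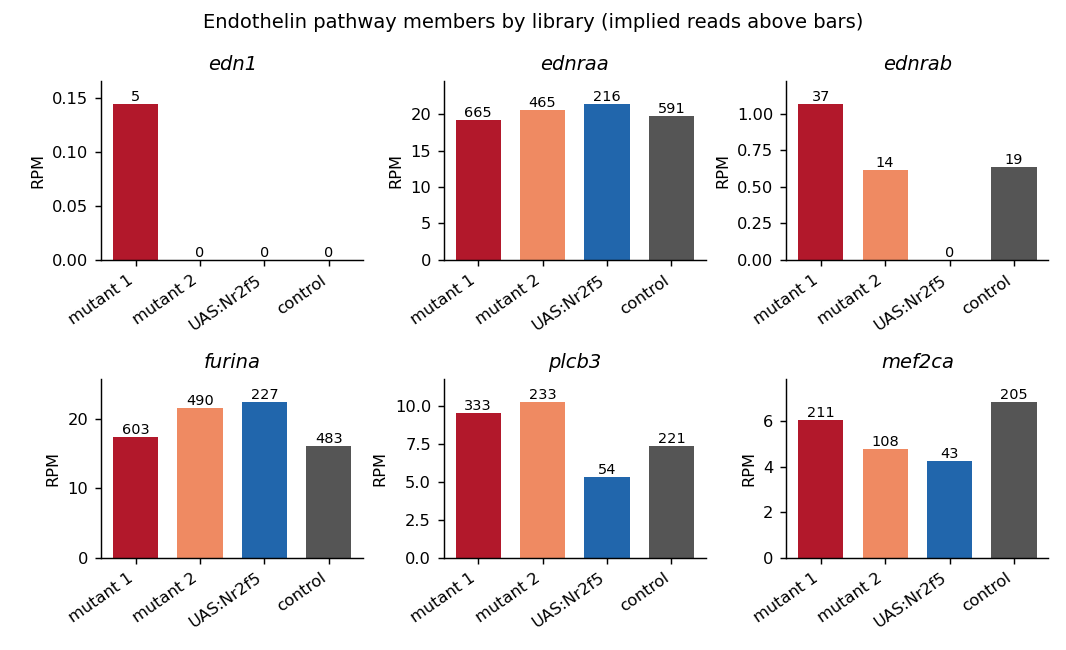
Bars give the RPM of each of the 6 genes in mutant 1, mutant 2, the library labelled UAS:Nr2f5 and the control, on axes that start at 0, with the implied reads above each bar. ednraa lies between 19.1 and 21.3 RPM in all 4 libraries, edn1 has reads in mutant 1 alone, and ednrab has 0 reads in the library labelled UAS:Nr2f5.

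furina encodes a proprotein convertase that cuts the Endothelin 1 precursor. It was at 17.3 and 21.6 RPM in the mutants, 22.4 in the library labelled UAS:Nr2f5 and 16.1 in the control. The control is the lowest of the 4, and mutant 1 stands nearer to it than to mutant 2. The mutants differed from the control by 0.25 ± 0.21 in log2(RPM + 1) (limma adjusted p = 0.710, interval −0.27 to 0.77) and from the library labelled UAS:Nr2f5 by −0.20 ± 0.21 (adjusted p = 0.529). The library labelled UAS:Nr2f5 stood 1.39-fold above the control (counting interval 1.181 to 1.63), under the 2-fold used as the size rule. Its paralog furinb was at 2.90 and 3.66 RPM in the mutants, 3.95 in the library labelled UAS:Nr2f5 and 2.37 in the control, also lowest in the control.

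plcb3 encodes the phospholipase C beta that acts below the receptor's Gq proteins. It was at 9.57 and 10.3 RPM in the mutants, 5.33 in the library labelled UAS:Nr2f5 and 7.38 in the control. Both mutants lie above the control and the library labelled UAS:Nr2f5 lies below it, an order shared by 22.5% of the 11391 genes tested. The mutants differed from the control by 0.38 ± 0.25 in log2(RPM + 1) (limma adjusted p = 0.612, interval −0.23 to 1.00). They differed from the library labelled UAS:Nr2f5 by 0.79 ± 0.25 (interval 0.17 to 1.40), a 1.86-fold ratio of mean RPM. That difference had an unadjusted limma p of 0.0206 and did not pass over all genes (adjusted p = 0.0765). It passed when only genes averaging 5 RPM or more were tested (limma adjusted p = 0.026), as 1921 of those 5294 genes did. The library labelled UAS:Nr2f5 was 1.38-fold below the control (counting interval 1.02 to 1.90). The direction of plcb3 turns when libraries are scaled to the arch crest markers, to −0.21 for the mutants against the control, −0.62 against the library labelled UAS:Nr2f5 and 0.41 for that library set against the control.

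mef2ca encodes a MADS-box transcription factor that works downstream of Endothelin 1 in the arches and is also a gene of muscle. It was at 6.07 and 4.76 RPM in the mutants, 4.25 in the library labelled UAS:Nr2f5 and 6.85 in the control. The control is highest and the library labelled UAS:Nr2f5 lowest, with both mutants between. The control stood above all 3 other libraries for 18.1% of genes. The mutants differed from the control by −0.30 ± 0.31 in log2(RPM + 1) (limma adjusted p = 0.772, interval −1.07 to 0.47) and from the library labelled UAS:Nr2f5 by 0.28 ± 0.31 (adjusted p = 0.549). The library labelled UAS:Nr2f5 was 1.61-fold below the control (counting interval 1.16 to 2.296), on 43 against 205 reads. In the mutants mef2ca was at 88.6% and 69.6% of its control level. The summed muscle markers were at 33.2 and 49.8 RPM in the mutants, 3885 in the library labelled UAS:Nr2f5 and 1204 in the control, and their part in the level of mef2ca was not tested.

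No member passed in either limma comparison. Of the 4 members that could be tested, 0 were called in the mutants against the control, where 1.04% of all genes were, and 0 had an unadjusted p under 0.05, where 13.2% of all genes did. Against the library labelled UAS:Nr2f5, 0 were called, where 20.1% of all genes were. Scaled to the arch crest markers, ednraa, furina and mef2ca fell in that comparison, as 8702 of 11391 genes did. There, without that scaling, plcb3 was the 1 member with an unadjusted p under 0.05, which 37.4% of all genes had. Between the library labelled UAS:Nr2f5 and the control, 0 of 4 were at least 2-fold apart in log2(RPM + 1), against 16.0% of all genes. The comparisons share libraries, so they are not independent of each other. The median difference of the 4 members was 0.13 in the mutants against the control (0.03 over all genes), 0.09 against the library labelled UAS:Nr2f5 (0.17 over all genes) and −0.15 for that library against the control (−0.11 over all genes).

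These differences were also set against the gap between the 2 mutants. Among genes within 2-fold of plcb3's mean level, 10% differed between the mutants by more than 0.61 in log2(RPM + 1). plcb3 exceeded that between the mutants and the library labelled UAS:Nr2f5 (0.79) and not against the control (0.38). How many genes pass such a limit in these comparisons was not counted. The 0.79 of plcb3 was above the difference of 81% of all genes tested. The limit comes from the mutants, which are deeper than the library labelled UAS:Nr2f5, where plcb3 had 54 reads. For mef2ca the same limit was 0.69, above its differences of −0.30, 0.28 and −0.58. For ednraa and furina it was 0.47, and their largest difference was the 0.45 of furina between the library labelled UAS:Nr2f5 and the control. With median-ratio scaling these readings turn: furina there was at 0.62, past its limit of 0.47, and plcb3 between the mutants and the library labelled UAS:Nr2f5 was at 0.59, under its limit of 0.60. Scaled to the arch crest markers, each of the 4 had at least 1 difference past its limit. Under that scaling the median of all genes was itself at −1.23 in the mutants set against the library labelled UAS:Nr2f5. That median is past all 4 limits in size, so these passes say little about the members.

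**Figure D2:**
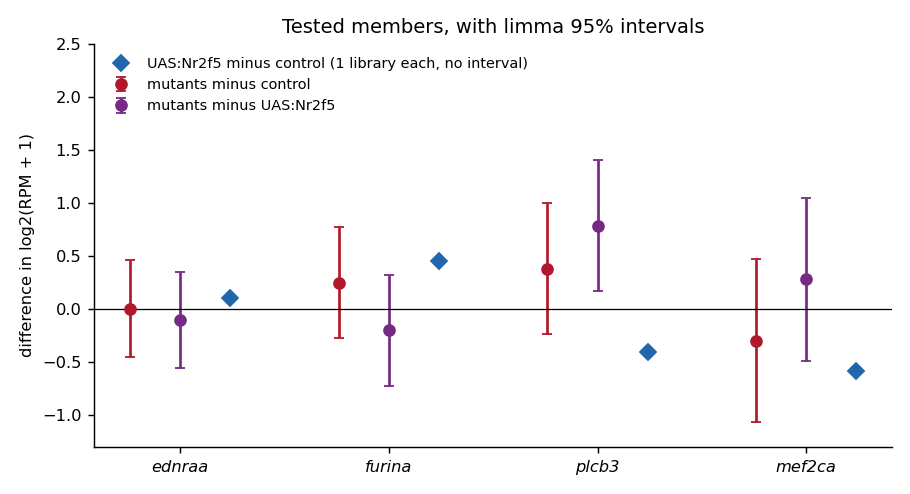
Points give the difference in log2(RPM + 1) of the 4 tested members for the mutants minus the control, the mutants minus the library labelled UAS:Nr2f5 and that library minus the control. Bars are limma 95% intervals over the first 2 comparisons, with 2 mutant libraries and 1 library on the other side. Of the 8 intervals, that of plcb3 for the mutants minus the library labelled UAS:Nr2f5 (0.17 to 1.40) does not cross 0.

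Library scaling changed the sign of several of these differences. The arch crest scaling made the median deviation of the 10 markers from their gene means the same in every library. Under it the median difference of the markers between groups need not be 0. This scaling moved the median of all genes to −0.56 in the mutants against the control. It moved that median to 0.70 in the library labelled UAS:Nr2f5 set against the control. Under it ednraa stood at −0.59 in the mutants against the control (limma adjusted p = 0.0506) and at 0.92 in the library labelled UAS:Nr2f5 set against the control. Relative to the median of all genes, both are close to where they stood before. Under the same scaling mef2ca was at −0.89 in the mutants and at 0.23 in the library labelled UAS:Nr2f5, each against the control, and at −1.12 in the mutants set against the library labelled UAS:Nr2f5 (limma adjusted p = 0.00634). Median-ratio scaling moved the median of all genes between the library labelled UAS:Nr2f5 and the control from −0.11 to 0.03, and left furina at 0.62, plcb3 at −0.25 and mef2ca at −0.43 there.

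**Figure D3:**
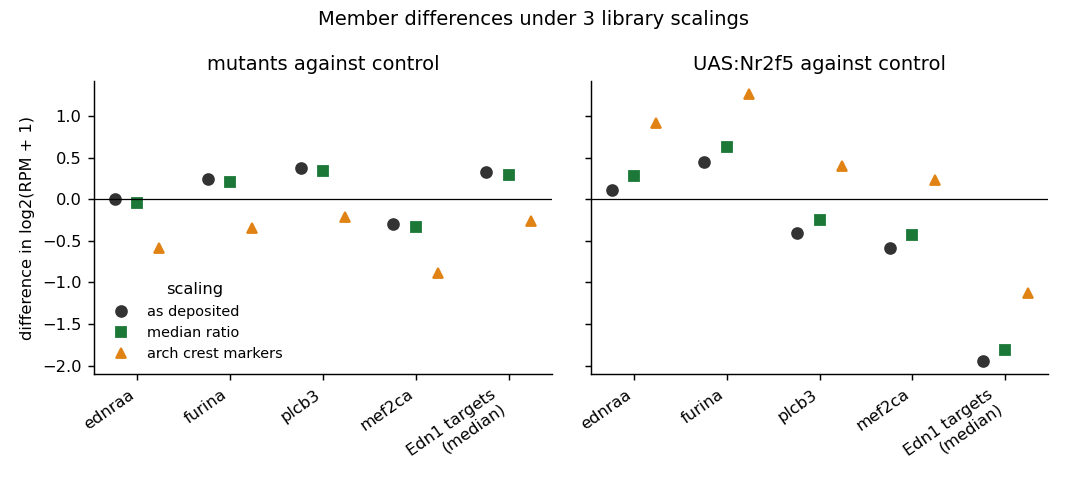
Points give the difference in log2(RPM + 1) for the 4 tested members and the median of the genes listed downstream of Edn1, under 3 scalings of the libraries, with the mutants against the control on the left and the library labelled UAS:Nr2f5 set against the control on the right. With the arch crest scaling ednraa is at −0.59 and 0.92, while the downstream median is below 0 under all 3 scalings on the right.

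The other genes of the pathway came from a list of 31, of which 29 were matched and 15 had a mean of at least 1 RPM. In the mutants against the control, 0 of these 15 passed limma (1.04% of all genes did) and 0 had an unadjusted p under 0.05 (13.2% did), with 9 above and 6 below the control and a median of 0.20 (0.03 over all genes). Against the library labelled UAS:Nr2f5, 1 of 15 fell, where 8.92% of all genes fell, and 0 rose, where 11.2% did. That was mef2aa, another Mef2 gene, at 0.834 and 0.485 RPM in the mutants, 3.06 in the library labelled UAS:Nr2f5 and 1.37 in the control. Its mean without the library labelled UAS:Nr2f5 was under the minimum of 1 RPM, so it entered the test only through that library. It fell by 1.30 ± 0.34 in the mutants set against that library (limma adjusted p = 0.0448). It did not pass with a pseudocount of 0.5 (adjusted p = 0.0578) or 0.1 (0.0958), without the trend (0.0515) or without the filter on low values (0.213). Muscle markers differ between these libraries in the same direction, and their part in this result was not tested. Between the library labelled UAS:Nr2f5 and the control, 1 of 15 was at least 2-fold apart, where 16.0% of all genes were. This was hdac5, a class II histone deacetylase of the kind that holds Mef2 proteins inactive, with 11 reads (1.09 RPM) in the library labelled UAS:Nr2f5 against 103 reads (3.44 RPM) in the control, 3.17-fold lower (counting interval 1.70 to 6.54). With median-ratio scaling 0 of 15 were 2-fold apart, as were 0 of the 7 that averaged 5 RPM or more. In the mutants hdac5 was at 2.59 and 3.79 RPM, on both sides of the control.

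The genes around the receptor differed in their order over the libraries. Of the Gq protein genes, gna11a was at 7.53 and 9.75 RPM in the mutants, 4.25 in the library labelled UAS:Nr2f5 and 6.51 in the control, in the same order as plcb3, and the mutants did not pass against the library labelled UAS:Nr2f5 (limma adjusted p = 0.0866). gna11b followed that order in a narrower range, at 9.83 and 9.61, 7.31 and 8.32 RPM. gnaq had at most 6 reads in any library. Of the converting enzymes, ece1 was flat, at 3.79 and 4.85 RPM in the mutants, 3.85 in the library labelled UAS:Nr2f5 and 4.07 in the control. ece2b was lowest in the control, at 12.1 and 14.9 RPM in the mutants, 14.9 in the library labelled UAS:Nr2f5 and 8.95 in the control, as 16.6% of genes were.

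Of the genes for IP3 receptors, the calcium channels that phospholipase C opens, the 3 tested were highest in the library labelled UAS:Nr2f5. The share of all genes highest in that library was not counted. itpr1b, under the minimum of 1 RPM, had 8 and 0 reads in the mutants. It had 7 in the library labelled UAS:Nr2f5 and 19 in the control. itpr2 was at 2.18 and 1.37 RPM in the mutants, 4.44 in the library labelled UAS:Nr2f5 and 3.14 in the control, and itpr3 at 0.949 and 0.661, 2.37 and 1.80. Both genes lie lowest in the mutants. itpr1a was at 6.61 and 6.09 RPM in the mutants, 9.28 in the library labelled UAS:Nr2f5 and 4.94 in the control, and none of the 3 passed. Among the Mef2 genes, mef2cb, the paralog of mef2ca, was at 5.17 and 4.45 RPM in the mutants, 4.94 in the library labelled UAS:Nr2f5 and 3.41 in the control. It is lowest in the control, where mef2ca is highest.

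**Figure D4:**
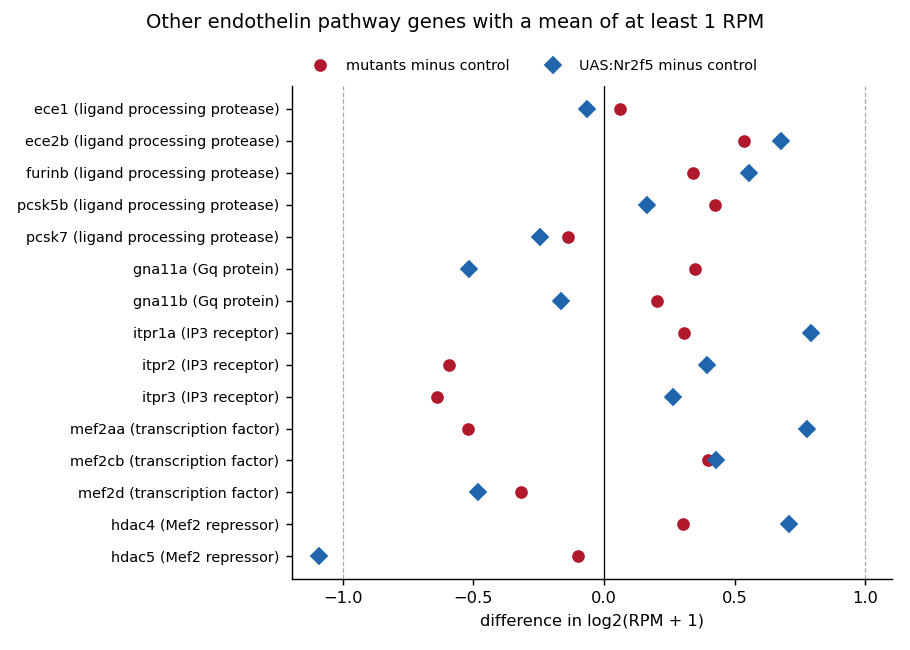
Each row is 1 of the 15 other pathway genes averaging 1 RPM or more. Circles give the mutants minus the control and diamonds the library labelled UAS:Nr2f5 minus the control, in log2(RPM + 1), with dashed lines at 2-fold. hdac5 in the library labelled UAS:Nr2f5 (−1.09) is the point past 2-fold.

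Genes listed as downstream of Edn1 were lowest in the library labelled UAS:Nr2f5 for all 11 that could be tested. The list holds 12 ventral and intermediate arch genes, and the other, evx1, was under the minimum of 1 RPM. This list was chosen with earlier results of these data known. Over all genes, the library labelled UAS:Nr2f5 was below the control for 6556 of 11391. The share of genes lowest in that library was not counted. In the mutants set against the library labelled UAS:Nr2f5, 9 of 11 rose by limma and 0 fell, where 11.2% of all genes rose, and the median difference was 2.74 (0.17 over all genes). Scaled to the arch crest markers 7 rose and 2 fell (msx1b and emx2), and without the filter on low values 0 did (smallest adjusted p = 0.081). Between the library labelled UAS:Nr2f5 and the control, 9 of 11 were at least 2-fold lower, against 9.17% of all genes, with a median of −1.94. With the 2 genes listed at 0 in that library set to 3 reads, both medians and the 9 stay as given. The 9 at 2-fold became 8 with median-ratio scaling and 7 when scaled to the arch crest markers. Over all genes, 1856 and 3737 of 11391 were then 2-fold apart in either direction. In the mutants against the control 0 of 11 passed (1.04% of all genes did), 5 had an unadjusted p under 0.05 (13.2% of all genes did), and the median was 0.33. The arch crest markers lay in the same directions. Their median was 1.42 in the mutants set against the library labelled UAS:Nr2f5, −0.66 in that library against the control and 0.61 in the mutants against the control. Their part in the difference of the downstream genes was not tested. Scaled to those markers, the downstream median between the library labelled UAS:Nr2f5 and the control was −1.13.

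The 5 Dlx homeobox genes of this list, a family that gives the arches their dorsoventral identity, all rose in the mutants set against the library labelled UAS:Nr2f5. dlx5a was at 36.2 and 28.1 RPM in the mutants, 2.37 in the library labelled UAS:Nr2f5 and 18.9 in the control, and rose by 3.29 ± 0.23 in log2(RPM + 1) in the mutants set against the library labelled UAS:Nr2f5 (limma adjusted p = 0.00227). dlx6a was at 14.4 and 12.9 RPM in the mutants, listed at 0 in the library labelled UAS:Nr2f5 and at 4.27 in the control, and also rose (limma adjusted p = 0.00323). Against 3 reads there, its mutant mean was at least 46.0-fold higher. dlx3b and dlx4a rose as well in that comparison, by 2.27 and 2.89. dlx4b, also listed at 0 in the library labelled UAS:Nr2f5, rose, with a mutant mean at least 27.1-fold higher than 3 reads. hand2, a bHLH transcription factor that marks ventral crest, was at 34.8 and 23.8 RPM in the mutants, 3.46 in the library labelled UAS:Nr2f5 and 15.2 in the control (adjusted p = 0.00579). nkx3.2, needed for the jaw joint, was at 16.0 and 13.6 RPM in the mutants, 1.28 in the library labelled UAS:Nr2f5 and 8.05 in the control (adjusted p = 0.00521). gsc and msx1a also rose, by 1.48 and 1.89. Both mutants lie above the library labelled UAS:Nr2f5 in these 9 genes, which were picked by that comparison. Over all genes, 6707 of 11391 had a difference above 0 in it, and those with both mutants above were not counted. msx1b and emx2 did not pass (the smaller adjusted p was 0.22). evx1 had 8 reads in the library labelled UAS:Nr2f5 and 0 in both mutants.

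Dorsal arch genes, which Edn1 signalling keeps low in the ventral arch, were mixed in direction. Of 8 listed, 0 passed in the mutants against the control, where 1.04% of all genes did. There 6 lay above the control and 2 below, with a median difference of 0.44 (0.03 over all genes). An unadjusted limma p under 0.05 was found for 3 of the 8, where 13.2% of all genes had one. Against the library labelled UAS:Nr2f5 2 of 8 passed, where 20.1% of all genes did: six1a rose (17.0 and 18.6 RPM in the mutants, 8.89 in the library labelled UAS:Nr2f5 and 11.7 in the control, limma adjusted p = 0.0322) and pou3f3b fell (26.6 and 29.2, 44.2 and 33.9 RPM, adjusted p = 0.0496). six1a did not pass with median-ratio scaling (limma adjusted p = 0.0601) and pou3f3b did not with a pseudocount of 0.5 (0.0535), and neither passed without the trend or without the filter. Between the library labelled UAS:Nr2f5 and the control 0 of 8 were 2-fold apart, where 16.0% of all genes were.

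**Figure D5:**
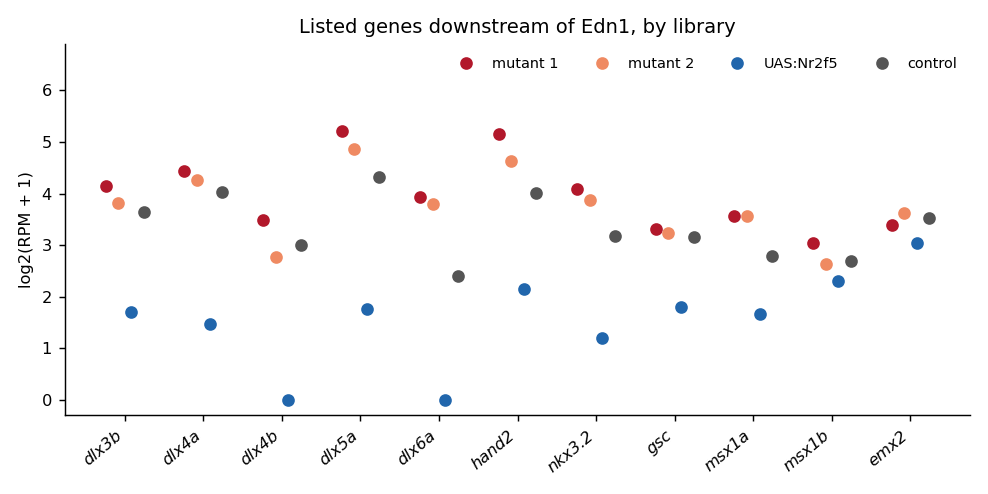
Points give log2(RPM + 1) of the 11 genes listed downstream of Edn1 that averaged 1 RPM or more, in mutant 1, mutant 2, the library labelled UAS:Nr2f5 and the control. The library labelled UAS:Nr2f5 is the lowest point for every gene shown, with dlx4b and dlx6a at 0.

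The genes whose pattern came nearest to each member were found by the root mean square difference of centred log2(RPM + 1) values over the 4 libraries, among 5293 genes averaging 5 RPM or more. For mef2ca they were srsf2b, nr2f2 and pcca, at 0.02 each. nr2f2 is one of the genes mutated in the mutants, and 90 genes lay within 0.1 of mef2ca. For plcb3 they were wdr43, erf and RBM33 (1 of 2), at 0.01 to 0.02, with 257 genes within 0.1. For furina they were prkar1ab, dnajc5ga and ndufs1, at 0.03 to 0.04, with 103 genes within 0.1. For ednraa they were spag9a, znf827 and hspa4b, at 0.01 to 0.02, with 292 genes within 0.1.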

How the data were processed

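RNA-seq values of 4 libraries were used. The submitters' processing notes name the GRCz10 assembly, TopHat2 and Partek. Versions and annotation are not given in the sources used here. The deposited file calls its values TPM. They were taken as RPM as deposited by the authors, since most low values are multiples of 1 step per library for genes of any kind (88.4% to 94.0% of values whole within 0.02 read). The rest are fractions, so no count model was run. Implied reads were rounded for the intervals and limits. The columns sum to 14.8% to 15.8% of 1000000. Per the labels' protocols, embryos grew at 28.5 °C, were moved to 22 °C at 27 hpf, and cDNA was made with the SMARTer kit.

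Genes averaging 1 RPM or more were tested on log2(RPM + 1), a scale that understates changes of low genes, with limma 3.58.1 in R 4.3.3 (eBayes with trend, 1 mean per group, all 4 libraries), with Benjamini-Hochberg adjustment over 11391 genes at 0.05. The design had been written for TPM and was kept. Only the mutant pair gives a residual degree of freedom (1), and lone libraries are assumed to vary like that pair. eBayes adds spread shared over all genes, for a median total of 6.01 degrees of freedom. SEs and p-values thus draw mostly on that shared spread and less on a gene's own pair. The UAS:Nr2f5 library and the control, 1 library each, were compared by size (2-fold) with no p-value. Lists held 121 genes, 119 matched, 6 of them not by the file's own symbol. They cover the members, the pathway, genes downstream of Edn1, dorsal arch genes and markers of arch crest, muscle, heart, endothelium, epithelium, pouch endoderm, pigment cells and neurons. Heart and pouch lists each had 1 gene over the minimum (vmhc and pax9). Endothelial markers summed to 9.14 and 14.5 RPM in the mutants, 31.1 in the library labelled UAS:Nr2f5 and 13.6 in the control, and pigment markers to 8.37, 11.3, 30.1 and 9.89 RPM. The rule for naming genes took the members, the pathway and downstream genes past a threshold, and the pathway's ligands and receptors. It also took the leading or defining markers and the 3 nearest patterns of each member. Other pathway genes described here passed no threshold and were picked outside that rule. They are furinb, ece1, ece2b, gna11a, gna11b, gnaq, the IP3 receptor genes and mef2cb. Some of the same list, including pcsk5b, mef2d and hdac4, are not described. Members, lists and rules were chosen with earlier results of these data known. The fit was tested on simulated data in which all 4 libraries had the same spread for a gene. That test cannot check the assumption about lone libraries.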

Additional observations from a re-analysis of the deposited data

How the results depend on the processing

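With alternative pseudocounts (0.1 and 0.5), scalings, filters and a fit without trend, the counts for the members and lists stayed within 1.5 times of those reported in 37 of 46 cases. Most of the 37 were counts of 0 that stayed at 0, where this rule says little. The lists in the mutants set against the library labelled UAS:Nr2f5 are not among the 46. There the 9 downstream genes called became 0 without the filter on low values. Scaling to the arch crest markers gave 3 of 4 members called in the mutants set against the library labelled UAS:Nr2f5, where 8763 of 11391 genes were. In the mutants against the control, 3 of 15 pathway genes were called under it, where 2640 of all genes were. Between the library labelled UAS:Nr2f5 and the control, this scaling put 1 member, 8 pathway genes and 3737 of all genes at 2-fold. It also turned, in the mutants against the control, ednraa to −0.59, furina to −0.34 and plcb3 to −0.21, and, against the library labelled UAS:Nr2f5, plcb3 to −0.62 and mef2ca to −1.12. With a mean of at least 5 RPM, 1 member (plcb3) was called against the library labelled UAS:Nr2f5, where 1921 of 5294 genes were. With that filter 3 downstream genes were called against the control, where 413 of 5294 genes were, and 0 pathway genes were at 2-fold. That last count was 2 with the pseudocount of 0.1 and 0 with median-ratio scaling. ednraa in the mutants against the control was −0.039 with median-ratio scaling. Without 1 mutant it ranged from −0.044 to 0.052, where no test is possible. Apart from the scaling and the filter themselves, the cause was not tested. With no filter, 0 of 22546 genes passed limma in either mutant comparison. No paired analysis was possible because 2 of the 3 groups hold a single library. The count test was not run, since whole reads were not recovered. The 0 to 37 reads of edn1 and ednrab limit what can be said of them.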

Other observations

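Ratios of 2 genes within a library do not depend on its scaling, and the pairs here were chosen after their values were seen. The ratio of mef2ca to its paralog mef2cb was 1.17 and 1.07 in the mutants (exact Clopper-Pearson 95% counting intervals 0.956 to 1.44 and 0.808 to 1.42), 0.860 in the library labelled UAS:Nr2f5 (0.559 to 1.32) and 2.01 in the control (1.58 to 2.57). The control's interval lies above the other 3. Set against ednraa instead, mef2ca was at 0.317 and 0.232 in the mutants (0.27 to 0.371 and 0.187 to 0.287). That ratio was 0.199 in the library labelled UAS:Nr2f5 (0.14 to 0.277) and 0.347 in the control (0.294 to 0.407). There the control's interval overlaps that of mutant 1 and lies above those of mutant 2 and the library labelled UAS:Nr2f5. How often gene pairs separate in this way was not counted. The ratio of plcb3 to ednraa was 0.501 in each mutant (0.438 to 0.572 and 0.426 to 0.588), 0.250 in the library labelled UAS:Nr2f5 (0.182 to 0.338) and 0.374 in the control (0.319 to 0.437). The mutants' intervals do not overlap that of the library labelled UAS:Nr2f5, and that of mutant 1 lies just above the control's. The ratio of furina to furinb was 5.97 and 5.90 in the mutants, 5.68 in the library labelled UAS:Nr2f5 and 6.80 in the control. All 4 intervals overlap. Set against ednraa, furina was at 0.907 and 1.05 in the mutants (0.811 to 1.01 and 0.926 to 1.2). That ratio was 1.05 in the library labelled UAS:Nr2f5 (0.868 to 1.27) and 0.817 in the control (0.723 to 0.923). The control's interval lies just below that of mutant 2 and overlaps the others. The ratio of gna11a to gna11b was 0.766 and 1.01 in the mutants (0.65 to 0.902 and 0.837 to 1.23). It was 0.581 in the library labelled UAS:Nr2f5 and 0.783 in the control. These intervals cover counting error only, and with 1 library in each of 2 groups the spread between libraries of those groups is unknown.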
